A study of Mus musculus with 9 samples.

Results

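The Nrf2 and Keap1 regulators are 10 genes of the 55401 in the TPM table, chosen by symbol and not by their values. They are the transcription factors Nfe2l2 (Nrf2) and Nfe2l1 (Nrf1), the repressor Bach1, the small Maf partners Maff, Mafg and Mafk, the ubiquitin ligase members Keap1, Cul3 and Rbx1, and Sqstm1 (p62). RNA was sequenced from RAW264.7 cells, a wild-type mouse macrophage line derived from a male tumor induced by Abelson leukemia virus. Cells received DMSO, the solvent, LPS, a bacterial wall component that drives M1 polarization, or LPS + Ska, which is LPS with the indole compound skatole. There were 3 samples in each group, numbered 5, 6 and 7, and the labels give 24 h of treatment. One cell line was used, and no label states that the samples came from separate cultures, so the p-values below measure the spread between these samples, which may be technical.

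Nrf2 binds the antioxidant response element as a dimer with a small Maf protein and switches on genes of glutathione, NADPH and iron handling. Keap1 holds Nrf2 to a ligase built on Cul3 and Rbx1, which marks Nrf2 for destruction until oxidants or electrophiles modify Keap1. Bach1 occupies the same elements as a repressor, and p62 draws Keap1 into autophagosomes. Much of this control acts on protein, which TPM of RNA does not measure. In macrophages the pathway is known for restraining oxidative stress and inflammatory gene expression.

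All 10 genes were tested, as each had a mean TPM of at least 1. TPM is scaled by transcript length and to a fixed total, so levels can be compared between genes, but it keeps no record of sequencing depth, which is unknown here. In the LPS and LPS + Ska groups, the column numbered 5 was the average of columns 6 and 7 in 17950 of 17950 and 17658 of 17658 genes with all 3 values above 0, with a largest gap of 5e-06 TPM. In DMSO a column equalled the mean of its other columns in at most 0.0636% of genes. The tied columns hold at most 2 independent values, which were recovered (value 1 and value 2) and used in the tests, so n is 3 for DMSO and 2 for each of the other groups. The values by column below are as deposited, and the mean ± SD are of the independent values. LPS raised 7 of 7 genes that LPS is known to induce, against 12.5% of all genes tested called higher. Among them Acod1 went from between 6.00 and 6.80 TPM to between 206 and 225 TPM. In LPS + Ska compared with LPS, 2 of the 7, Il6 (-2.09) and Il1b (-1.39), were called lower, against 4.92% of all genes tested. The other 5 were not called, with log2 differences from -0.38 to 0.35. All 8 macrophage markers passed the filter, with a summed 12314 to 13275 TPM in DMSO, 7273 to 7673 TPM with LPS and 13560.4 to 13853 TPM with LPS + Ska. This sum was mostly Lyz2, which was called lower with LPS (-1.05) and higher in LPS + Ska compared with LPS (1.19). Other markers did not follow it. Csf1r (-0.67 and -0.83) and Spi1 (-0.81 and -0.83) were called lower with LPS and with LPS + Ska compared with DMSO. Cd14 was called higher with LPS + Ska compared with DMSO (0.77), and Fcgr1 was called lower in LPS + Ska compared with LPS (-0.59). In LPS + Ska compared with LPS, 5 of 8 markers had a negative difference, and the median over all genes was also negative (-0.09). The part of the markers in the results below was not tested. Of 12 markers of other cell types, 11 were below the filter and 7 of these were listed at 0 in every column, and the 12 summed to between 0.878 and 3.43 TPM in a column.

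The promoters of Nfe2l2, Keap1, Mafg and Sqstm1 are shown because these genes carry the main comparisons below. Nfe2l2 is the activator, Keap1 the only member called and Mafg the most abundant small Maf. Sqstm1 was the only member with a limma adjusted p below 0.05 in LPS + Ska compared with LPS, where it was not called. Each run is sequence from RefSeq (GRCm38.p6, the same assembly as mm10), upstream of the RefSeq start and of any base that the GENCODE M21 annotation gives to the gene, read 5′ to 3′ on the minus strand. The windows are chr2:75704664-75704913 for Nfe2l2, chr9:21239362-21239582 for Keap1, chr11:120633601-120633797 for Mafg and chr11:50210828-50211070 for Sqstm1. Capitals mark matches, on either strand, to the antioxidant response element core TGACNNNGC, to the aryl hydrocarbon receptor core GCGTG or to the NF-kB motif.
Nfe2l2: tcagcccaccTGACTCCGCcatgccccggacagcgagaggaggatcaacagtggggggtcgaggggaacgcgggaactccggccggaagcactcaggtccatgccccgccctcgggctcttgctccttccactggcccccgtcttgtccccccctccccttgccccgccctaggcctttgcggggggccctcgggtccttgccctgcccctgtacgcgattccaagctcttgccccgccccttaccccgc
Keap1: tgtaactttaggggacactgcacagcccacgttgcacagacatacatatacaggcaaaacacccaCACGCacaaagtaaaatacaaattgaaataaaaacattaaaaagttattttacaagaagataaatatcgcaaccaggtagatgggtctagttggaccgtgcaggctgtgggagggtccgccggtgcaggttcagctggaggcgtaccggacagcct
Mafg: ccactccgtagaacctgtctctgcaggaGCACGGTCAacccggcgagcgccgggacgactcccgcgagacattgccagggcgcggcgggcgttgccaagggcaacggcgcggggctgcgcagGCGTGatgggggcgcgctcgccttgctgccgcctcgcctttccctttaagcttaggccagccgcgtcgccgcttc
Sqstm1: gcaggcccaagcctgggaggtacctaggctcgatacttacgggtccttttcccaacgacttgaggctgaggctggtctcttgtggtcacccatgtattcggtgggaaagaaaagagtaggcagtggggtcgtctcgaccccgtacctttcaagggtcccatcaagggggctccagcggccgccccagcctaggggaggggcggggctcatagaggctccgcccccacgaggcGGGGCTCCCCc

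In the 250 bases before the start, the Nfe2l2 window held the antioxidant core on the gene's own strand from -240 to -232. The Mafg window held it on the opposite strand from -222 to -214, and a GCGTG from -128 to -124. The capitals of Keap1 are a GCGTG on the opposite strand from -185 to -181, and those of Sqstm1 are an NF-kB match from -18 to -9, found on both strands. All 10 members had a RefSeq promoter, with 16 windows in all. The antioxidant core was in a window of 4 members (Nfe2l2, Maff, Mafg and Mafk), compared with 10.2% of 32851 promoters of the same length. GCGTG was in a window of 7 members, compared with 28.2% of promoters, and the NF-kB motif in a window of Maff and Sqstm1, compared with 7.25%. The shares are per promoter whereas Nfe2l1 had 5 windows and Maff 3. A match is a description of the letters, and binding was not measured in these samples.

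The levels in DMSO ran from Sqstm1, the most abundant, to Maff. The mean TPM was 413 ± 50.6 (SD, n = 3) for Sqstm1, 122 ± 5.39 for Nfe2l2, 97.4 ± 5.69 for Rbx1, 86.6 ± 7.73 for Mafg, 65.7 ± 4.68 for Keap1, 64.3 ± 3.27 for Cul3, 53.1 ± 6.28 for Nfe2l1, 24.3 ± 6.90 for Mafk, 16.2 ± 0.912 for Bach1 and 3.77 ± 1.39 for Maff. Nfe2l2 lay at the 88.6th percentile of the 12840 genes tested by mean TPM, Keap1 at the 73.2nd and Bach1 at the 39.8th. In this order the columns of Rbx1 and Mafg overlapped, as did those of Keap1 and Cul3, so that these neighbours did not differ beyond their spread. With LPS the order changed in the middle: Cul3 and Rbx1, whose columns overlapped, came next after Nfe2l2, and Keap1, which was below Mafg already in DMSO, was then also below Cul3 and Nfe2l1. With LPS + Ska the columns of Nfe2l2 and Rbx1 overlapped, as did those of Rbx1 and Cul3, and Keap1 remained seventh. Sqstm1 and Nfe2l2 were first and second, and Mafk, Bach1 and Maff were the lowest, in all 3 groups.

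**Figure D1:**
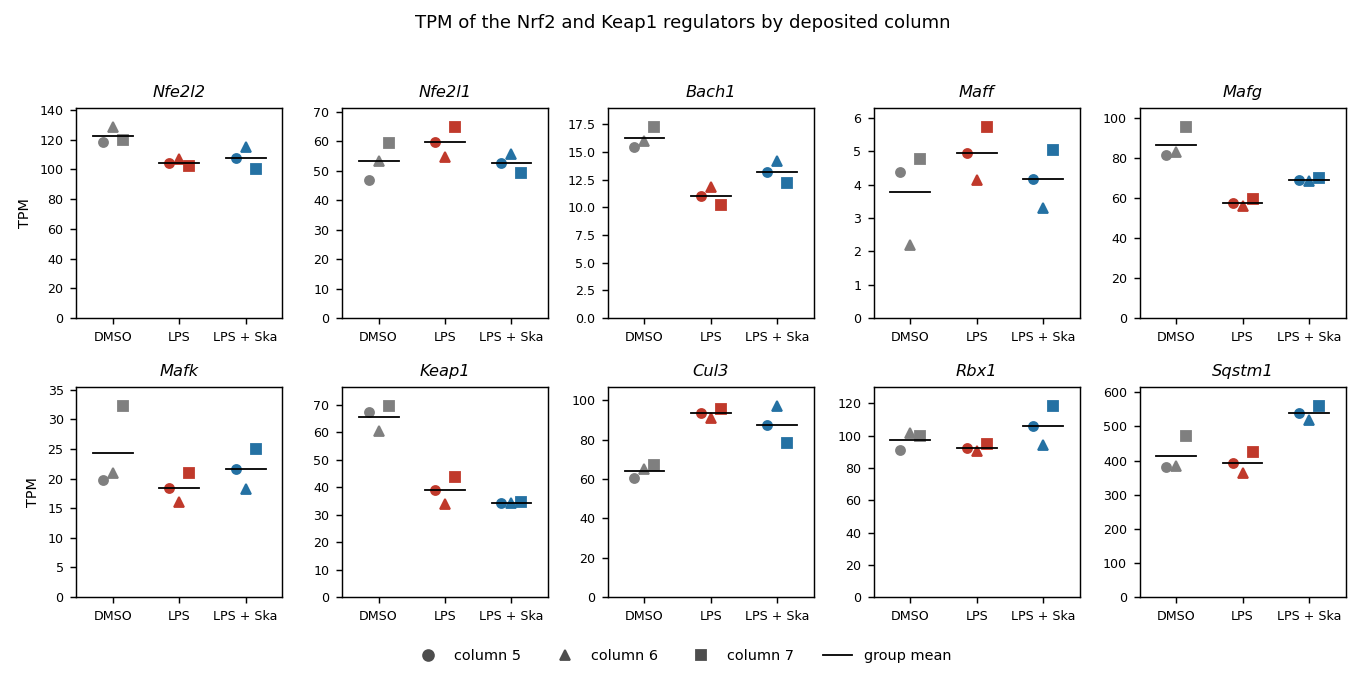
TPM of the 10 regulators (vertical axes from 0, one scale per gene) in the 3 groups, with 1 point for each deposited column and a line at the mean of the independent values. Keap1 is at 60.4 to 69.4 TPM in DMSO and at 34.0 to 43.6 TPM in both LPS groups, Cul3 is higher in both LPS groups, and Sqstm1 is highest with LPS + Ska.

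Comparing LPS with DMSO shows how the regulators stood after the inflammatory stimulus. Keap1, the adaptor that recognizes Nrf2, fell to 0.60 times its DMSO level and was the only member called. Cul3, the scaffold of the same ligase, was 1.45 times as high, while Mafg and Bach1 were at 0.67 and 0.70 times their DMSO levels. These passed the test on p but stayed inside the fold limits. A gene was called at a limma adjusted p below 0.05 with a fold change, on the TPM + 1 scale, above 1.5 or below 0.67. Thus 1 of 10 members was called lower and 0 higher, against 19.9% and 12.5% of all genes tested. On adjusted p alone 5 of 10 passed, against 57.7% of all genes tested, and their median log2 fold change was -0.15, against -0.07 over all genes. Under median-ratio scaling 48.7% of the calls over all genes were higher, compared with 38.7% with TPM.

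Keap1 (ENSMUSG00000003308, chr9:21229730-21239361) was at 67.2, 60.4 and 69.4 TPM in DMSO and at 38.8, 34.0 and 43.6 TPM with LPS. Every LPS column was below every DMSO column. The log2 fold change was -0.75 (SE 0.0877, 95% interval -0.95 to -0.54, adjusted p = 0.000203), and Keap1 kept its call in all 16 alternative fits, with adjusted p between 0.000101 and 0.00424. An antisense gene, Gm16754, overlaps 3317 bases of Keap1 at 1.22 to 7.15 TPM, and the library kit does not mark strand, so reads of the pair cannot be told apart. As in any bulk RNA, fewer cells expressing a gene and less RNA per cell cannot be told apart either.

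Cul3 (ENSMUSG00000004364, chr1:80264923-80340480) moved in the other direction. Its columns were 60.7, 65.2 and 67.0 TPM in DMSO and 93.3, 91.2 and 95.4 TPM with LPS, again without overlap. The log2 fold change was 0.53 (SE 0.0747, adjusted p = 0.0005), and it rose past the fold limit only under median-ratio scaling, at 0.62. Rbx1 (ENSMUSG00000022400, chr15:81466296-81476369), the RING subunit that recruits the ubiquitin-loaded enzyme, was at 90.9 to 101 TPM in DMSO and 90.4 to 94.8 TPM with LPS. These ranges overlapped, and the difference of -0.07 (95% interval -0.25 to 0.11, adjusted p = 0.454) changed sign to 0.02 under median-ratio scaling. A pseudogene of Rbx1, Rbx1-ps, was listed at 0.656 to 1.98 TPM, and reads could be shared with it.

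Among the DNA-binding members, Nfe2l2 (ENSMUSG00000015839, chr2:75675513-75704641) was at 118, 128 and 120 TPM in DMSO and at 104, 107 and 102 TPM with LPS. The columns did not overlap, but the log2 difference was only -0.22 (SE 0.0649, adjusted p = 0.0184). It missed the limit on p in 4 of 16 alternatives: under median-ratio scaling (0.0967) and without DMSO replicate 6 (0.0529), LPS value 1 (0.0885) or LPS value 2 (0.135). Nfe2l1 (ENSMUSG00000038615, chr11:96817414-96829968), the relative of Nrf2 that controls proteasome genes, had overlapping ranges of 46.8 to 59.3 and 54.6 to 64.7 TPM. Its log2 difference was 0.17 (95% interval -0.07 to 0.41, adjusted p = 0.191, and 0.0359 under median-ratio scaling or 0.0465 without DMSO replicate 7).

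Bach1 (ENSMUSG00000025612, chr16:87698945-87733346) was at 15.4, 16.0 and 17.2 TPM in DMSO and at 11.0, 11.8 and 10.3 TPM with LPS. All LPS columns were lower, with a log2 fold change of -0.52 (SE 0.0989, adjusted p = 0.00244). Mafg (ENSMUSG00000051510, chr11:120625117-120633600) was at 81.5, 82.8 and 95.5 TPM in DMSO and at 57.6, 56.0 and 59.3 TPM with LPS, a log2 fold change of -0.58 (SE 0.0811, adjusted p = 0.00051). The groups did not overlap, and Mafg lay so near the fold limit that it was called with a pseudocount of 0.1 (-0.58) and without DMSO replicate 5 (-0.62), DMSO replicate 6 (-0.61) or LPS value 2 (-0.60). Mafg shares 124 bases on the same strand with Sirt7, which was called lower at -0.88, and reads there could be split between them.

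Mafk (ENSMUSG00000018143, chr5:139791513-139802653) was at 19.7, 20.9 and 32.2 TPM in DMSO, where replicate 7 stood above the others, and at 16.1 to 20.9 TPM with LPS. The log2 difference of -0.35 (95% interval -0.79 to 0.10) did not pass (adjusted p = 0.162), although it did with the deposited columns and a replicate block (0.0274). Maff (ENSMUSG00000042622, chr15:79346621-79359076), the scarcest member, ranged from 2.18 to 4.76 TPM in DMSO and from 4.14 to 5.72 TPM with LPS. Its log2 difference was 0.36 (95% interval -0.24 to 0.95, adjusted p = 0.266). Sqstm1 (ENSMUSG00000015837, chr11:50199366-50210827) was at 382, 385 and 471 TPM in DMSO and at 394, 364 and 424 TPM with LPS, and the difference of -0.06 (adjusted p = 0.607) changed sign to 0.03 under median-ratio scaling.

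**Figure D2:**
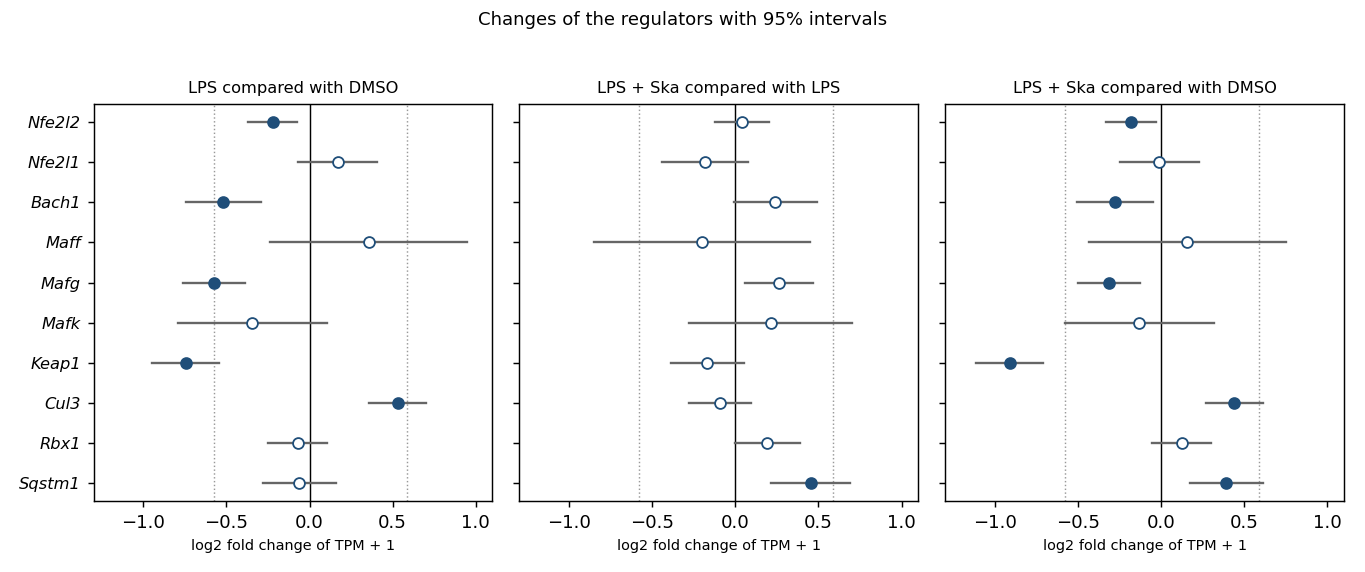
Log2 fold change of TPM + 1 (horizontal axes) of the 10 regulators in the 3 comparisons, with 95% intervals; filled points have an adjusted p below 0.05 and dotted lines mark the fold limits of 1.5 and 0.67. Keap1 lies beyond the lower limit with LPS (-0.75) and with LPS + Ska (-0.91) against DMSO, and no member lies beyond a limit in LPS + Ska compared with LPS.

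Comparing LPS + Ska with LPS shows what skatole added. None of the 10 members was called in either direction, against 2.80% of all genes tested called higher and 4.92% called lower. Sqstm1, the autophagy receptor that binds Keap1, was 1.37 times as high and was the only member past 0.05 for the adjusted p of limma, against 18.4% of all genes on that rule. Mafg had the next lowest adjusted p of limma among the members (0.0771). The median log2 difference of the members was 0.12, against -0.09 over all genes. Under median-ratio scaling the higher share of calls over all genes was 55.4%, compared with 36.2% with TPM.

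Sqstm1 was at 394, 364 and 424 TPM with LPS and at 539, 519 and 559 TPM with LPS + Ska, and the groups did not overlap. The log2 fold change was 0.45 (SE 0.104, 95% interval 0.21 to 0.69, adjusted p = 0.0224). The direction held in all 16 alternatives, from 0.40 to 0.56, but the adjusted p missed the limit in 6 of them. It was 0.162 without LPS value 1, 0.0904 without LPS value 2, 0.0744 without LPS + Ska value 1, 0.123 without LPS + Ska value 2, 0.0794 with no filter on low values and 0.0597 with no intensity trend. Mrnip overlaps 750 bases of Sqstm1 on the opposite strand, at 0.837 to 3.42 TPM.

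Mafg was at 57.6, 56.0 and 59.3 TPM with LPS and at 69.3, 68.5 and 70.0 TPM with LPS + Ska, between the LPS and DMSO columns and overlapping neither. The log2 difference of 0.26 (95% interval 0.06 to 0.47) had an adjusted p of 0.0771, which fell below the limit in 6 of 16 alternatives, among them the deposited columns (0.0193), the deposited columns with a replicate block (0.0241) and median-ratio scaling (0.0174). Bach1 also had columns apart, at 11.0, 11.8 and 10.3 TPM with LPS and 13.2, 14.2 and 12.2 TPM with LPS + Ska. Its log2 difference was 0.24 (95% interval -0.0094 to 0.49, adjusted p = 0.161).

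Nfe2l2 itself was at 104, 107 and 102 TPM with LPS and at 108, 115 and 100 TPM with LPS + Ska. The LPS columns lay within the range of the LPS + Ska columns, and the log2 difference was 0.04 with a 95% interval of -0.12 to 0.20 (adjusted p = 0.73). Keap1 was at 38.8, 34.0 and 43.6 TPM with LPS and at 34.3, 34.1 and 34.6 TPM with LPS + Ska, a log2 difference of -0.17 (95% interval -0.39 to 0.05, adjusted p = 0.257). All of these columns lay below the DMSO columns of 60.4 to 69.4 TPM. Cul3 ranged from 78.1 to 97.0 TPM with LPS + Ska, on both sides of its LPS columns, and its difference of -0.09 (95% interval -0.28 to 0.10) turned to 0.01 under median-ratio scaling.

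The remaining differences between LPS + Ska and LPS did not pass either. Rbx1 ranged from 94.0 to 118 TPM with LPS + Ska, a log2 difference of 0.19 (95% interval -0.0005 to 0.39, adjusted p = 0.149, and 0.0434 under median-ratio scaling). Mafk was at 18.3 to 24.9 TPM (0.21, 95% interval -0.28 to 0.70), Maff at 3.30 to 5.04 TPM (-0.20, 95% interval -0.85 to 0.45) and Nfe2l1 at 49.1 to 55.8 TPM (-0.18, 95% interval -0.44 to 0.08). For Mafk and Maff the intervals reach beyond a fold limit, so a change of that size is not excluded for them by these samples.

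LPS + Ska compared with DMSO uses the same DMSO samples as the LPS comparison, and the values stand side by side. Keap1 was called lower at -0.91 (SE 0.0877, adjusted p = 5.8e-05), at 0.53 times its DMSO level, and kept its call in all 16 alternatives. It was again the only member called, 1 of 10 lower and 0 higher, against 25.2% and 11.2% of all genes tested. On adjusted p alone 6 of 10 members passed, against 60.7% of all genes. Cul3 was higher by 0.44 (adjusted p = 0.00119) and Sqstm1 by 0.39 (adjusted p = 0.00738, and 0.0532 without LPS + Ska value 2). Under median-ratio scaling these were 0.64 and 0.59 and both were called.

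The median log2 difference over all genes was -0.18 in this comparison and moved to 0.00 under median-ratio scaling, a shift of 0.18, with 50.4% of calls higher compared with 30.7%. Mitochondrial-genome and ribosomal protein genes together took 16.9% to 19.3% of TPM in DMSO and 21.2% to 21.6% with LPS + Ska. Rescaling after removal of these genes moved the median to -0.13, a shift of 0.04. There the limma adjusted p was 0.111 for Nfe2l2 and 0.068 for Bach1, while Mafg stayed below 0.05. The cause of the larger shift was not tested. That shift of 0.18 was as large as the difference of Nfe2l2 (-0.18, adjusted p = 0.0386), while those of Bach1 (-0.28, adjusted p = 0.0382) and Mafg (-0.31, adjusted p = 0.00981) exceeded it. Under median-ratio scaling Nfe2l2 changed sign to 0.02, and the adjusted p was 0.811 for Nfe2l2, 0.413 for Bach1 and 0.192 for Mafg. Bach1 missed the limit in 9 of 16 alternatives and Nfe2l2 in 8, including those without DMSO replicate 6 (0.058 and 0.105) and without LPS + Ska value 2 (0.178 and 0.187). Mafg also missed it without LPS + Ska value 1 (0.054). The differences of Nfe2l1, Maff, Mafk and Rbx1 ranged from -0.13 to 0.16 and did not pass, and those of Nfe2l1 and Mafk changed sign under median-ratio scaling, where Rbx1 (0.32, adjusted p = 0.00674) passed the test on p.

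Ratios within a column do not depend on how the column was scaled, and are given as a description without a test. Nfe2l2 relative to Keap1 was 1.73 to 2.12 in DMSO, 2.34 to 3.15 with LPS and 2.90 to 3.37 with LPS + Ska. The LPS groups overlapped each other and lay above DMSO. Keap1 relative to Cul3, its partner in the ligase, was 0.927 to 1.11 in DMSO, 0.372 to 0.457 with LPS and 0.351 to 0.443 with LPS + Ska. The 2 transcripts were thus at near equal levels in DMSO and unequal in both LPS groups. Sqstm1 relative to Keap1 was 5.69 to 6.79 in DMSO, 9.73 to 10.7 with LPS and 15.2 to 16.2 with LPS + Ska, with no overlap between any of the groups.

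The repressor relative to the activator, Bach1 to Nfe2l2, was 0.125 to 0.144 in DMSO, 0.101 to 0.110 with LPS and 0.122 to 0.124 with LPS + Ska. The LPS columns lay below all others. The 3 small Mafs summed to 106 to 133 TPM in DMSO, 76.2 to 86.0 TPM with LPS and 90.1 to 100 TPM with LPS + Ska. Mafg made up most of the sum in every column, from 69.0% to 78.2%, so the sum mostly followed Mafg, while Maff contributed 2.06% to 6.65%.

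**Figure D3:**
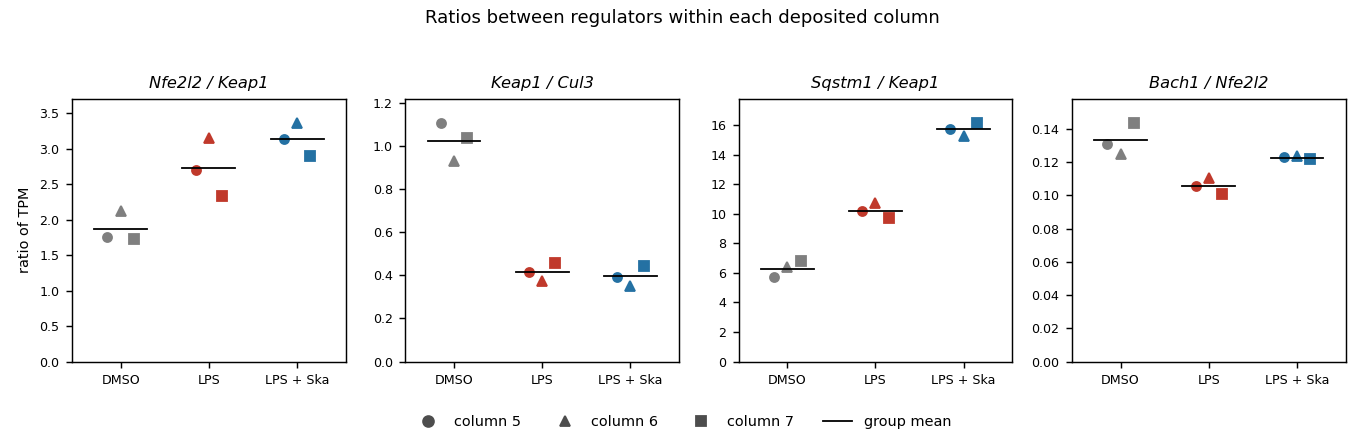
Ratios of TPM between pairs of regulators within each deposited column (vertical axes from 0), with a line at the mean of the 3 columns of a group. Keap1 relative to Cul3 is near 1 in DMSO and at most 0.457 in both LPS groups, and Sqstm1 relative to Keap1 is different in each of the 3 groups.

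The other genes of the pathway were taken from lists written for this work. Keap1 and Cul3 act in a ligase that is switched on when the ubiquitin-like protein Nedd8 is attached to the cullin. Of 10 genes of this cycle, 4 were called higher with LPS compared with DMSO and 0 lower (median 0.26), against 12.5% and 19.9% of all genes tested. With LPS these were Cops2 (0.94), a subunit of the signalosome that removes Nedd8, Dcun1d1 (0.73), which promotes its attachment, and Uba3 (0.63) and Nae1 (0.61), which form the activating enzyme. The count was 3 when any DMSO replicate was left out. Cops2 was at 100 to 125 TPM in DMSO and 209 to 218 TPM with LPS, and Nae1 at 51.1 to 57.9 and 79.7 to 84.2 TPM. Nedd8 itself was at 201 to 207 and 187 to 194 TPM (-0.10, adjusted p = 0.222). With LPS + Ska compared with DMSO 4 were called higher and 0 lower, against 11.2% and 25.2% of all genes tested. None of the 10 was called in LPS + Ska compared with LPS. By limma 2 of them, both lower, had an adjusted p below 0.05, against 18.4% of all genes tested.

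Of 12 partners of Keap1 and p62, 1 was called higher with LPS and 2 lower, against 12.5% and 19.9% of all genes tested. Sesn2, which binds both proteins, was called higher (0.76, adjusted p = 0.0032), from 6.91 to 10.2 TPM in DMSO to 13.8 to 15.9 TPM. Dpp3, a peptidase that competes with Nrf2 for Keap1, fell from 40.1 to 44.1 TPM to 17.1 to 17.7 TPM (-1.23, adjusted p = 3.3e-05). Prkcd, a kinase reported to phosphorylate Nrf2, fell from 129 to 148 TPM to 84.0 to 84.7 TPM (-0.68, adjusted p = 0.000191). The same 3 were called with LPS + Ska compared with DMSO (0.70, -0.87 and -0.80), where Sesn2 lost its call without DMSO replicate 6. These were 1 higher and 2 lower, against 11.2% and 25.2% of all genes tested. None of the 12 was called in LPS + Ska compared with LPS. There 2 had an adjusted p below 0.05 by limma, 1 higher and 1 lower, against 18.4% of all genes tested.

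Nrf2 can also be removed without Keap1, through Gsk3 kinases with β-TrCP or through Syvn1. None of 7 genes of this route was called in any comparison. The shares of all genes tested, called higher and lower, were 12.5% and 19.9% with LPS compared with DMSO. They were 2.80% and 4.92% in LPS + Ska compared with LPS, and 11.2% and 25.2% with LPS + Ska compared with DMSO. By limma, 4, 1 and 3 of the 7 had an adjusted p below 0.05 in these comparisons but stayed inside the fold limits. This compares with 57.7%, 18.4% and 60.7% of all genes tested. Of 4 genes that process Nrf1, only Ddi2, the protease that frees it from the endoplasmic reticulum, was called, at -0.88 with LPS + Ska compared with DMSO (adjusted p = 0.00034). It was 1 of 4 called lower there, against 25.2% of all genes tested. The further factors Nfe2, Nfe2l3, Bach2, Maf, Mafa and Nrl of the same DNA-binding family were below the filter, with at most 0.989 TPM in any column.

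Of 5 listed proteins that work with Nrf2 on chromatin or hold it back, 2 were called lower in LPS + Ska compared with LPS and 0 higher (median -0.51), against 4.92% and 2.80% of all genes tested. Rara, a retinoic acid receptor that restrains Nrf2, was at 11.1 to 14.2 TPM with LPS and 5.94 to 6.86 TPM with LPS + Ska (-0.88, adjusted p = 0.00369). Chd6, a chromatin remodeler, was at 6.02 to 7.03 and 3.01 to 4.36 TPM (-0.69, adjusted p = 0.0255). Columns of the 2 groups did not overlap for either gene. The count was 0 without LPS value 1, 1 with no filter on low values, 1 without LPS value 2 and 1 without LPS + Ska value 2. Rxra was called lower with LPS compared with DMSO (-0.92, adjusted p = 0.00632) at 0.432 to 0.696 TPM, but not without LPS value 2. With LPS + Ska compared with DMSO, 3 of the 5 were called lower, Rara (-0.97), Rxra (-0.79) and Chd6 (-0.73), against 25.2% of all genes tested.

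Of 28 known Nrf2 target genes, 26 were tested, and Gsta3 and Aox1 were below the filter with at most 0.147 TPM in a column. An earlier account of these data had already named 9 of the 26 for their changes, so the list is not independent evidence of a direction, and the counts for the other 17 are given as well. With LPS compared with DMSO, 19 were called lower and 1 higher, against 19.9% and 12.5% of all genes tested (median -1.06, against -0.07 over all genes), and among the 17 there were 11 lower and 1 higher. In LPS + Ska compared with LPS, 19 were called higher and 0 lower, against 2.80% and 4.92% of all genes tested (median 0.83, against -0.09), and among the 17 there were 11 higher and 0 lower. This count was 14 to 19 when single values were left out. Between these comparisons, 14 of the 26 were lower in the first and higher in the second. Both use the same LPS values, which links these calls. The share of all genes with both calls was not computed, so the joint count is a description without a background.

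Slc40a1, Cbr3, Ugt1a6a and Nqo1 had the largest differences between LPS + Ska and LPS, and Cbr3, Gstm1, Osgin1 and Blvrb between LPS and DMSO. Slc40a1, the iron exporter, was at 11.0 to 12.4 TPM in DMSO, 2.40 to 2.43 TPM with LPS and 14.4 to 16.3 TPM with LPS + Ska (-1.89 and then 2.26). Cbr3, a carbonyl reductase, was at 23.5 to 27.5, 2.62 to 3.16 and 15.3 to 18.1 TPM (-2.78 and 2.19), and Ugt1a6a, a glucuronosyltransferase, at 2.94 to 4.50, 0.757 to 1.66 and 8.61 to 9.26 TPM (-1.05 and 2.18). With LPS, Gstm1, a glutathione transferase, was at a log2 fold change of -2.50, and Osgin1 and Blvrb, which reduces biliverdin, were both at -2.37. Nqo1, a quinone reductase, was low throughout, at 2.18 to 3.12, 0 to 0.413 and 1.99 to 4.02 TPM (-1.67 and 1.75).

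Slc7a11, the cystine importer, did not follow this course. It was at 5.65 to 8.08 TPM in DMSO, 27.1 to 28.5 TPM with LPS and 63.4 to 81.0 TPM with LPS + Ska, and was called higher in both steps (1.91 and 1.34). Compared with DMSO, LPS + Ska had 4 targets called higher, Slc7a11 (3.25), Ugt1a6a (1.12), Prdx1 (0.98) and Gclm (0.96), and 10 lower, led by Osgin1 (-1.49) and Taldo1 (-1.22), against 11.2% and 25.2% of all genes tested. Under median-ratio scaling these counts were 7 higher and 5 lower. Over all genes that scaling gave 2242 called higher and 2205 lower, compared with 1435 and 3234 with TPM. Over the same 3 groups Nfe2l2 stayed between 100 and 128 TPM.

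**Figure D4:**
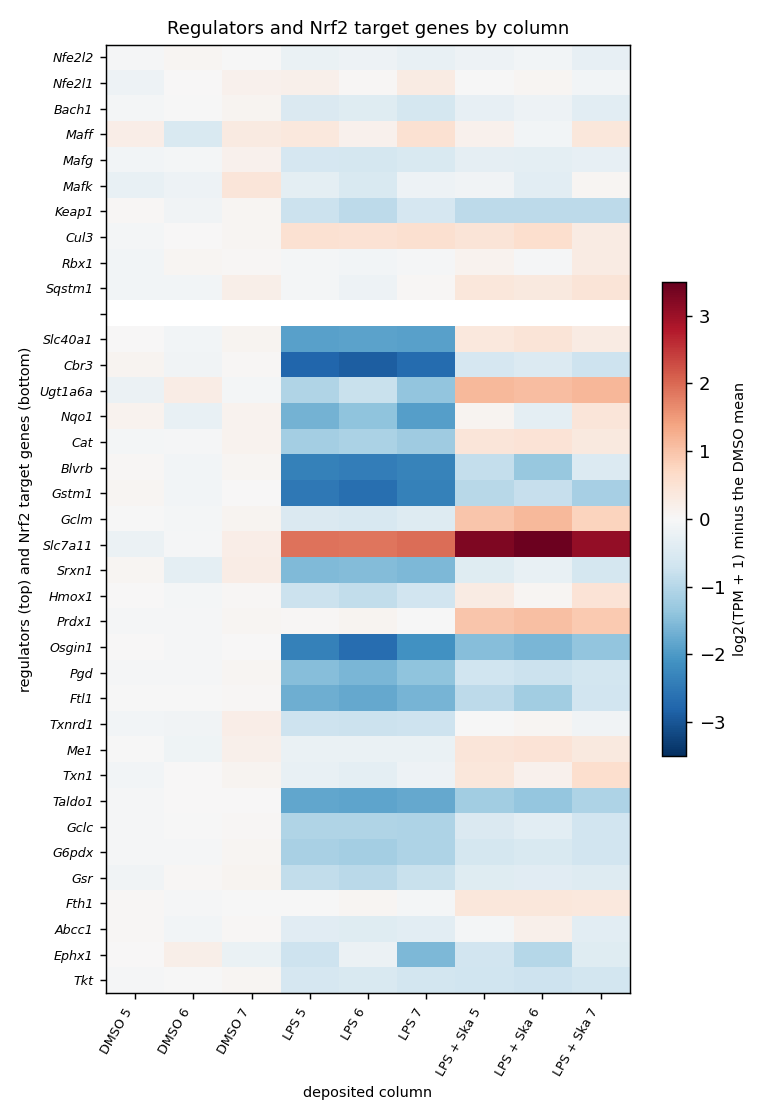
log2(TPM + 1) minus the DMSO mean (color, red above and blue below 0) for the 10 regulators (top) and 26 Nrf2 target genes (bottom, ordered by their difference between LPS + Ska and LPS) in the 9 deposited columns. The regulators stay pale beside the targets, of which 19 are called lower with LPS compared with DMSO and 19 higher in LPS + Ska compared with LPS.

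The genes with the level pattern most like Nfe2l2 over the 7 independent values were Hacd4 (Pearson r = 0.99), Acvrl1 (0.99), Gm45837 (0.98), Secisbp2 (0.98) and Pfkfb2 (0.98), and 105 genes had an r above 0.95. For Keap1 they were C030006K11Rik, Pygb, Gpr108, Rab43 and Ergic1 (0.995 to 0.999), with 1336 genes above 0.95. Among the members, Keap1 followed Mafg (0.82), Nfe2l2 (0.82) and Bach1 (0.79) and ran opposite to Cul3 (-0.91). The 7 values share 3 treatments and their libraries, so these figures describe mainly the difference between DMSO and the LPS groups.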

How the data were processed

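RNA of 9 RAW264.7 samples, 3 each for DMSO, LPS and LPS + Ska, was sequenced by the authors from libraries made with a kit that does not mark strand. The authors deposited TPM for 55401 genes, and the submitters' processing notes name fastp 0.20.1, HISAT2 2.2.1, StringTie 2.0 and mm10, without parameters. The labels give 24 h of treatment and the study's methods a longer time. Symbols came from a reference table, in which 55141 identifiers matched. Depth is unknown, so no counting interval is given.

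In LPS and LPS + Ska, replicates 6 and 7 are replicate 5 plus and minus one difference, with results below 0 listed at 0. Independent values were recovered as replicate 5 plus and minus 0.5 times that difference. Where a column was listed at 0, the other exceeded replicate 5 by 1 to 2 times its value, and by exactly 2 times in 3186 of 4042 genes with LPS and 3115 of 4047 with LPS + Ska. The study's methods do not describe this step.

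log2(TPM + 1) of the 7 independent values was fitted with limma 3.58.1 in R 4.3.3 (lmFit, eBayes with an intensity trend), for the 12840 genes whose TPM averaged 1 or more, with Benjamini-Hochberg adjustment over all of them. The fit was tested on simulated data whose added changes were larger than those of any member, so recovery of changes of the members' size was not tested. Some listed genes are not reported here. Members, lists and tests were chosen with earlier results of these data known. Text names all members, up to 4 called genes of each list per direction and comparison, listed genes below the filter, and the 5 genes most correlated with Nfe2l2 and Keap1. Alternatives were the deposited columns with and without a replicate block, no filter, a filter at an average of 5 TPM, a pseudocount of 0.1, rescaling after removal of ribosomal protein and mitochondrial-genome genes, scaling by median ratios, compared groups alone, no intensity trend, adjusted p alone and each value left out in turn. Deviations of same-numbered columns of LPS and LPS + Ska correlated at 0.38, 0.15 and 0.13 for numbers 5, 6 and 7. Column 5 is the mean of its other columns in both groups, so its correlation does not measure samples that deviated together. Tied columns are not separate pairs, so the numbers are not treated as pairs. Figures were drawn with matplotlib 3.10.9.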

Additional observations from a re-analysis of the deposited data

How the results depend on the processing

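Over the 477 alternative values of single members, 470 had the same call status as the main fit and 7 gained a call. Only Keap1 was called in the main fit, so most of these values belong to members that stayed uncalled. Their changes of sign, or across the limit on adjusted p, are not in this tally. The 27 ratios were also taken from recovered values. Recovered values have nearly the same mean as the tied columns, and DMSO had none to recover, so this could not show a move. Keap1 kept its call throughout. With the deposited columns and a replicate block, the members called were 1, 0 and 1 in LPS compared with DMSO, LPS + Ska compared with LPS and LPS + Ska compared with DMSO, as without it, and no listed count moved by over 1.5 times. Of 6 columns, 5 correlated best with their own number between LPS and LPS + Ska, where the tie of the columns enters the count, and 2 in each comparison with DMSO.

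With LPS compared with DMSO, the members called were 2 with a pseudocount of 0.1, 2 under median-ratio scaling, 5 on adjusted p alone and 1 to 2 with a value left out. In LPS + Ska compared with LPS they were 1 on adjusted p alone. In LPS + Ska compared with DMSO they were 3 under median-ratio scaling and 6 on adjusted p alone. Over all genes, adjusted p alone gave 7404, 2364 and 7793 calls, compared with 4165, 991 and 4669, and in LPS + Ska compared with LPS there were 314 without LPS value 1, 380 without LPS value 2 and 482 without LPS + Ska value 2.

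Listed counts moved mostly on adjusted p alone, which adds genes inside the fold limits. With LPS compared with DMSO it gave 2 higher and 2 lower for Keap1-independent turnover, 1 lower for neddylation, 3 higher for Keap1 and p62 partners (2 under median-ratio scaling) and 1 lower for Nrf1 processing. Co-regulators called lower there were 0 with a mean TPM of at least 5, where Rxra was not tested, and 0 to 1 with a value left out. In LPS + Ska compared with LPS it gave 1 lower for turnover, 2 lower for neddylation, and 1 higher and 1 lower for partners (also 1 lower with a pseudocount of 0.1). With a value left out, co-regulators called lower there were 0 to 2 (1 with no filter on low values), and LPS-induced genes called lower 1 to 2, against 2. The last were 1 with a pseudocount of 0.1 and 1 with a mean TPM of at least 5. In LPS + Ska compared with DMSO it gave 1 higher and 2 lower for turnover, 2 lower for neddylation, 3 higher and 5 lower for partners, 5 lower for co-regulators and 10 higher for Nrf2 targets. Median-ratio scaling gave 1 higher for turnover, 3 higher for partners, and 7 higher and 5 lower for Nrf2 targets there, and rescaling after removal of ribosomal protein and mitochondrial-genome genes gave 1 higher for turnover and 2 higher for partners. With a value left out, turnover was 0 to 1 in each direction and partners called higher 0 to 1. The causes of these moves were not tested, beyond what the alternatives themselves set. Maff has no value at a mean TPM of at least 5.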
